A study of Mus musculus with 8 samples.

Results

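The 10 imprinted growth genes *H19*, *Igf2*, *Igf2r*, *Peg3*, *Mest*, *Plagl1*, *Dlk1*, *Meg3*, *Grb10* and *Snrpn* were examined for PBRM1 and BRG1 peaks in mouse uterine stromal cells. They are 10 of the 55450 genes of the GENCODE M21 annotation of mm10 and were chosen by name. A peak was given to a gene when it overlapped, by at least 1 bp, the 2000 bp on either side of any annotated TSS of that gene (a promoter peak) or the rest of the gene body. ChIC-Seq, in which an antibody tethers micrococcal nuclease to the chromatin of fixed cells and the released fragments are sequenced, was performed for PBRM1 and for BRG1 in 3 replicates each. PBRM1 is the subunit that marks the PBAF form of SWI/SNF, and BRG1 is an ATPase shared by several forms. All libraries came from primary stromal cells of WT mice aged 8 to 12 weeks on day 4. The labels call the mice pregnant in one field and pseudopregnant in another, and they name no strain. The cells of each library were pooled from the horns of several mice, digested, filtered and kept for hours on plastic, and were not sorted. The labels give 50000 cells, fixed for 5 minutes in 1% formaldehyde, per library. They do not say whether the replicates were separate pools of mice, so p-values measure only the spread between these samples. The 2 IgG libraries were not analysed here.

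An imprinted gene is transcribed mainly from the allele of one parent. The choice is set by DNA methylation laid down in the germ line at a control region and kept in every later cell division, with ZFP57, a zinc finger protein that recognises a short methylated motif, among its keepers. Many imprinted genes act on growth, and paternally expressed members such as *Igf2* and *Plagl1* are known to promote it, whereas maternally expressed members such as *Grb10*, *Igf2r* and *H19* are known to restrain it. Peak lists do not separate the alleles, so each value below is the sum over both.

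Of the 8 protein-coding members, 7 had a promoter peak in the pooled PBRM1 list, all but *Dlk1*, and 8 had one in the pooled BRG1 list. The shares among all 21951 protein-coding genes were 68.7% and 72.1%. Fewer members had a promoter peak in every replicate of an antibody than in its pooled list. Promoter peaks in all 3 PBRM1 replicates were found at 3 of the 8, against 52.2% of protein-coding genes, and in all 3 BRG1 replicates at 6 of the 8, against 61.4%. The 3 genes with a promoter peak in all 6 replicates were *Peg3*, *Plagl1* and *Grb10*, where 51.9% of protein-coding genes had one. The count of 3 fell to 1 (*Peg3*) when every peak had to reach a −log10 q of 5, and was 5, with *Igf2r* and *Mest*, without PBRM1 replicate 2. Of the 2 long noncoding RNA genes, *Meg3* had a promoter peak in the pooled PBRM1 list and both had one in the pooled BRG1 list, against 25.2% and 31.6% of 5854 lincRNA genes. Neither *H19* nor *Meg3* had a promoter peak in all 3 PBRM1 or all 3 BRG1 replicates, where the lincRNA shares were 9.29% and 14.3%. With so few members, none of these shares was tested.

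**Figure D1:**
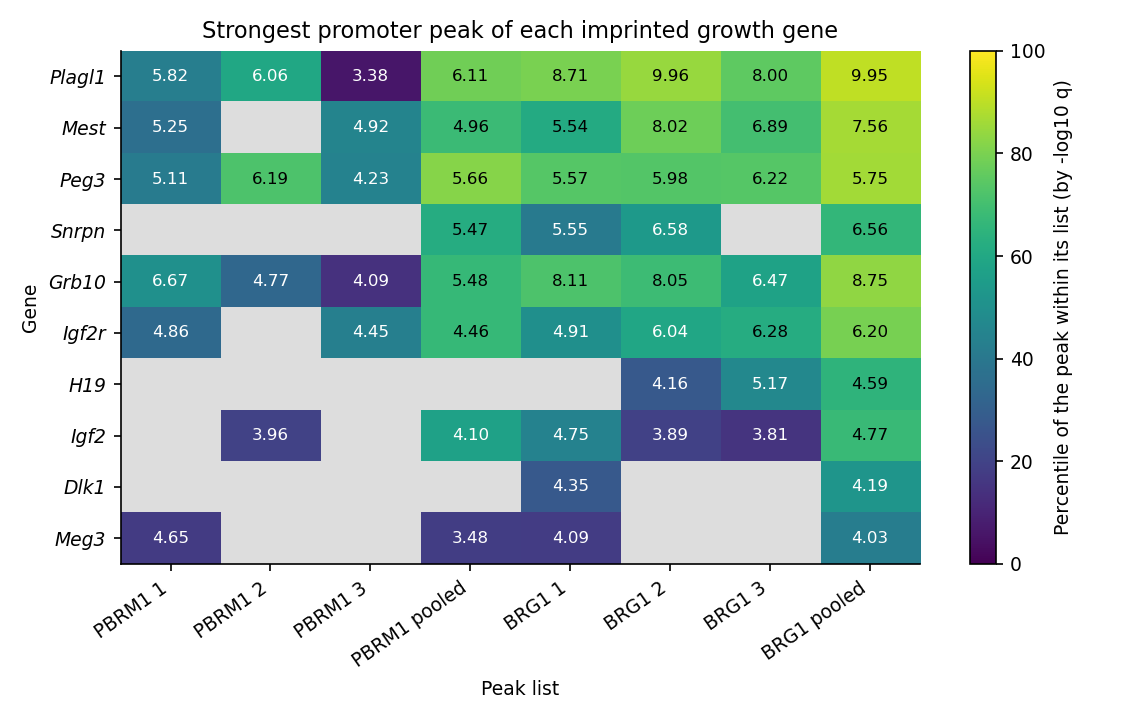
Strongest promoter peak of each of the 10 genes (rows) in each of the 8 peak lists (columns). Color gives the percentile of the peak among all peaks of its list, ranked by −log10 q, the printed value is the fold enrichment over local background, and grey marks no promoter peak. *Plagl1*, *Peg3* and *Grb10* are filled in all 6 replicates, and the PBRM1 columns hold more grey than the BRG1 columns.

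The 3 PBRM1 replicates held 7, 8 and 8 peaks over the 10 genes and the 3 BRG1 replicates 21, 15 and 15. The counts did not overlap between the antibodies, with means of 7.67 ± 0.577 and 17.0 ± 3.46 (SD, n = 3). The difference of −9.33 peaks gave an exact permutation p of 0.1 (two-sided), the smallest that 3 against 3 allow. As a share of all peaks of each list, the members took 0.0324% ± 0.00352 of the PBRM1 lists and 0.0442% ± 0.00655 of the BRG1 lists (SD, n = 3, exact permutation p = 0.1). A promoter peak was called at 6, 4 and 5 of the 10 genes in the PBRM1 replicates and at 9, 8 and 7 in the BRG1 replicates. Of the 8 protein-coding members these were 5, 4 and 5 for PBRM1, where 60.0%, 60.7% and 55.3% of all protein-coding genes had one, and 8, 7 and 6 for BRG1, where 66.1%, 65.1% and 65.0% had one. The PBRM1 lists held 21912 to 26363 peaks from 8868777 to 16505239 fragments, and the BRG1 lists 36656 to 40610 peaks from 11506964 to 14595089 fragments, so that the lists differ in length as the member counts do. With only the 10000 strongest peaks of each list, the difference shrank to −1.67 peaks (exact permutation p = 0.2).

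**Figure D2:**
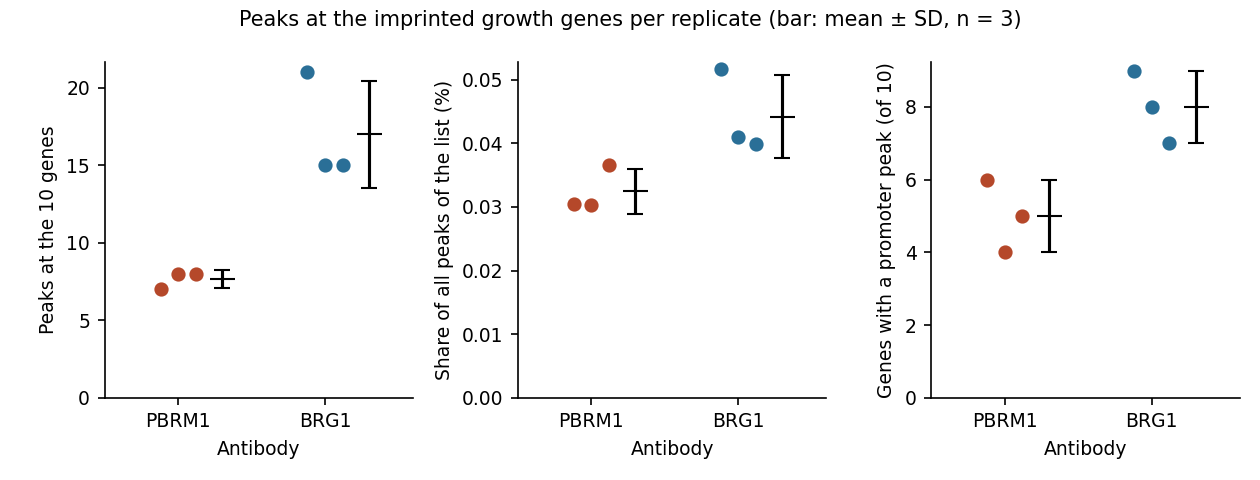
Number of peaks at the 10 genes, the same as a share of the list, and number of genes with a promoter peak, for each replicate (points) with mean ± SD (black, n = 3). The BRG1 points lie above the PBRM1 points in all 3 panels.

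*Plagl1* encodes a zinc finger transcription factor that is expressed from the paternal allele and regulates other imprinted genes. It carried the highest BRG1 fold enrichment among the 10 genes. At chr10:13090518-13091272, where 22 annotated transcripts start, the fold enrichment was 5.82, 6.06 and 3.38 in the PBRM1 replicates and 8.71, 9.96 and 8.00 in the BRG1 replicates, with pooled values of 6.11 and 9.95. Every BRG1 value was above every PBRM1 value, and PBRM1 replicate 3 was the lowest. The means were 5.09 ± 1.48 and 8.89 ± 0.993 (SD, n = 3). The share of genes with such a separation of unranked values was not computed. A separation of ranks is common. With peaks ranked by fold enrichment within each list, it was found at 32.1% of the 14113 genes with peaks in all 6 replicates, *Plagl1* among them. Summits lay from 96 bp upstream to 114 bp downstream of the nearest TSS over the 6 replicates. The TSS farthest upstream had a weaker peak at chr10:13060896-13061261, called in BRG1 replicates 1 and 3 (6.05 and 3.41) and in both pooled lists (3.48 for PBRM1 and 6.27 for BRG1), but in no PBRM1 replicate. The most downstream start window of the gene, which covers 2 transcripts, had no peak in any list. A weak site in between, at chr10:13080368-13080818, was called in BRG1 replicate 1 (4.48) and in both pooled lists (3.48 and 3.87). The sequence from 100 bp before the pooled BRG1 summit to the base before the TSS is shown because it holds both pooled summits. It is from the plus strand of GRCm38, chr10:13090508-13090690, and its capitals mark a match to the ZFP57 motif TGCCGC, which lies on the minus strand.
Plagl1 upstream: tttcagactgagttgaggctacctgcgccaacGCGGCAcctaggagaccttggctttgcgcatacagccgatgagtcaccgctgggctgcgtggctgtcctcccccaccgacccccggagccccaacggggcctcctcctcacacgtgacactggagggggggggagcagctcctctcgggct

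*Mest*, also called *Peg1*, encodes a protein of the α/β-hydrolase fold and is expressed from the paternal allele. Its strongest site, chr6:30737725-30738477, overlapped a UTR exon of a *Mest* transcript. The fold enrichment there was 5.25 and 4.92 in PBRM1 replicates 1 and 3, with no peak in replicate 2, and 5.54, 8.02 and 6.89 in the BRG1 replicates (6.82 ± 1.24, SD, n = 3). The pooled values were 4.96 and 7.56, with summits 37 bp apart. The upstream start windows of *Mest*, for 5 transcripts in all, had no peak in any of the 8 lists. A second PBRM1 site at chr6:30736793-30737177 was called in replicate 3 (4.23) and in the pooled list (3.09) and in no BRG1 list. Of all member sites, 5 had a PBRM1 peak in some list and no BRG1 peak in any, and each of these was called in at most 1 PBRM1 replicate. In the gene body, chr6:30745677-30745898 had peaks in the pooled lists alone (3.44 and 5.13).

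*Peg3* encodes a zinc finger protein expressed from the paternal allele, and *Usp29* starts next to it in the opposite direction. Its main site, chr7:6727836-6728989, lay in an intron and is listed for both genes. The fold enrichment was 5.11, 6.19 and 4.23 for PBRM1 and 5.57, 5.98 and 6.22 for BRG1, and the pooled values of 5.66 and 5.75 were nearly level. The replicate values of the antibodies overlapped, with means of 5.18 ± 0.983 and 5.92 ± 0.327 (SD, n = 3). Summits lay 1689 to 2205 bp into the gene, on the edge of the 2000 bp that define a promoter peak. With a limit of 1000 bp the site no longer counted as a promoter peak. Closer to the TSS, peaks had a lower fold enrichment than the main site in the same list. They were called at chr7:6729303-6729721 in PBRM1 replicate 3 (3.19) and BRG1 replicate 1 (4.25), and at chr7:6730039-6730578 in PBRM1 replicate 2 (4.33). Both sites also appeared in the pooled lists, with 3.81 and 3.15 for PBRM1 and 3.72 and 2.70 for BRG1. At the former site the pooled −log10 q was 9.65 for PBRM1 and 14.5 for BRG1.

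The first intron of *Peg3* is known for a row of binding sites of YY1, a zinc finger protein. The core searched here, GCCATNTT, was found 8 times in the 1154 bp of the pooled BRG1 peak, each time on the minus strand, the strand of *Peg3*. Within 250 bp on either side of the summit it was found 4 times for PBRM1 and 2 times for BRG1. At least 1 match stood in 8.64% of all 23717 pooled PBRM1 promoter peaks and 8.51% of 29474 BRG1 promoter peaks, at least 4 in 0.0590% of the former and at least 2 in 0.482% of the latter, in windows of the same length. The stretch that follows, chr7:6728251-6728550 on the plus strand of GRCm38, holds the pooled PBRM1 summit. Capitals mark 3 YY1 matches and 1 TGCCGC match.
Peg3 intron: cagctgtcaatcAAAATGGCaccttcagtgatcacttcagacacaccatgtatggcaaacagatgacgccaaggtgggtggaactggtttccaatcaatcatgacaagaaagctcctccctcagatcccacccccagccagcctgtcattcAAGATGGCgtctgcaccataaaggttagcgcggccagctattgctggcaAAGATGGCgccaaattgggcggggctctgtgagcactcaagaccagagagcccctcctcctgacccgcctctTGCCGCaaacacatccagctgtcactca

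*Snrpn* encodes SmN, a protein of the spliceosome, from a transcript it shares with *Snurf*, and its start lies in a control region for a large imprinted domain. The site chr7:60003992-60004894 was called in BRG1 replicates 1 and 2 (5.55 and 6.58) but not in replicate 3, and in no PBRM1 replicate. In the pooled lists its fold enrichment was 5.47 for PBRM1 and 6.56 for BRG1, with summits 77 bp apart in an intron. It is the same peak for *Snurf*. The other annotated start, at chr7 position 60140219, had no peak in any list. TGCCGC was found 8 times in the 894 bp of the pooled BRG1 peak, 7 of them on the minus strand, and 2 and 3 times within 250 bp of the BRG1 and PBRM1 summits. At least that many stood in 6.07% of BRG1 and 1.46% of PBRM1 promoter peaks. The part of the peak at chr7:60004145-60004435, plus strand of GRCm38, is shown with 3 of these matches in capitals, each on the minus strand.
Snrpn intron: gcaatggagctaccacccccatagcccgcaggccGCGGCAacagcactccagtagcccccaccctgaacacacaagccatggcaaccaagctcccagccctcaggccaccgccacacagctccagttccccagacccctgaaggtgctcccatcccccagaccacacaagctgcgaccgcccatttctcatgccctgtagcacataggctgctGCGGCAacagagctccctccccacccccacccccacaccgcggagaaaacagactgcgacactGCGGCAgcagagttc

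*Grb10* encodes an adaptor that restrains signaling from the insulin and IGF receptors. It is known to be expressed from the maternal allele in most tissues and, from other start sites, from the paternal allele in neurons. The site at chr11:12025565-12026584 lay in a start window that covers 3 annotated transcripts and was called in every replicate. Its fold enrichment was 6.67, 4.69 and 4.09 for PBRM1 (5.15 ± 1.35, SD, n = 3) and 8.11, 8.05 and 6.47 for BRG1 (7.54 ± 0.930, SD, n = 3). PBRM1 replicate 1 reached above BRG1 replicate 3, so the groups overlapped at this site. The start window farthest upstream, with 2 transcripts, had a pair of sites. At chr11:12037171-12037425 the BRG1 replicates gave 5.15, 5.08 and 5.92 and no PBRM1 replicate had a peak, although the pooled PBRM1 list had one (3.44). At chr11:12037659-12038105 the BRG1 values were 5.16, 3.68 and 4.19 and PBRM1 was called in replicate 2 (4.77) and the pooled list (5.01). An intronic site at chr11:11965607-11966405 was found in all 3 BRG1 replicates (3.74, 3.15 and 4.98) and, for PBRM1, in the pooled list alone (2.96). Of the 4 further start windows inside *Grb10*, 2 had a pooled BRG1 peak (3.42 and 4.41) and 2 had no peak in any list.

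*Igf2r* encodes the receptor that carries IGF2 to the lysosome and is expressed from the maternal allele. Its main start, at chr17:12769390-12770045, had peaks in PBRM1 replicates 1 and 3 (4.86 and 4.45) and in all BRG1 replicates (4.91, 6.04 and 6.28). The BRG1 values lay above the 2 PBRM1 values, and the mean of BRG1 was 5.74 ± 0.734 (SD, n = 3). Such an order is common. When peaks were ranked within each list by −log10 q and PBRM1 replicate 2 was left out, 52.0% of 14348 genes had PBRM1 below BRG1. Inside an intron starts *Airn*, an antisense RNA known to silence *Igf2r* on the paternal allele. The site at that start, chr17:12741209-12741779, was called in PBRM1 replicates 1 and 2 (4.43 and 4.28) and in all BRG1 replicates (6.36, 5.07 and 3.48), with pooled values of 3.82 and 5.69. Of the 14 sites found at *Igf2r*, 12 lay in the gene body outside the promoter windows, and this was the only one of those 12 called in all 3 BRG1 replicates. A pooled peak in a gene body outside the promoter windows was found in 4 of the 8 protein-coding members for PBRM1 (*Igf2r*, *Mest*, *Plagl1* and *Grb10*) and in 5 for BRG1 (also *Igf2*), against 29.0% and 36.4% of all protein-coding genes. When the pooled peak had to recur in all 3 replicates, 0 and 2 genes (*Igf2r* and *Grb10* for BRG1) were left.

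*H19*, a noncoding RNA expressed from the maternal allele, and *Igf2*, a fetal growth factor expressed from the paternal allele, share enhancers. A control region upstream of *H19* that binds the insulator protein CTCF on the unmethylated maternal allele is known to decide which of the pair is used. *H19* had no PBRM1 promoter peak in any list. Its BRG1 peak at chr7:142578217-142578592 was called in replicates 2 and 3 (4.16 and 5.17) and in the pooled list (4.59), with summits 92 to 97 bp upstream of a TSS. At *Igf2* the site that both antibodies held, chr7:142660508-142660960 in an intron and 486 to 599 bp downstream of a TSS, had a fold enrichment of 3.96 in PBRM1 replicate 2 alone and of 4.75, 3.89 and 3.81 in the BRG1 replicates. PBRM1 replicate 2 was inside the range of the BRG1 values. The antisense gene *Igf2os* overlaps this site, and peaks carry no strand. BRG1 alone was called at chr7:142658827-142659569 (3.09 and 3.64 in replicates 1 and 2), and the TSS of *Igf2* farthest upstream had no peak in its window.

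Between *H19* and *Igf2* lie 72622 bp. Outside the promoter windows of both genes, the interval held 1, 0 and 0 peaks in the PBRM1 replicates and 1, 2 and 0 in the BRG1 replicates, and 2 and 3 in the pooled lists. None was called in more than 1 replicate of an antibody. The nearest to *H19* had its pooled BRG1 summit 2253 bp upstream of the gene, just outside the 2000 bp limit (fold enrichment 3.56, and 4.01 in replicate 2). The next, at 3659 bp in the pooled BRG1 list (3.23) and 3678 bp in the pooled PBRM1 list (2.88), stood in the same stretch for both antibodies, and BRG1 replicate 1 had a peak there (3.57). Within 250 bp of the BRG1 summit, GGNGGCAG, a part of the CTCF core, was found 3 times and TGCCGC 3 times. As many were found in 0.414% and 0.580% of the windows of all 82594 pooled BRG1 peaks, and at least 1 in 22.7% and 16.3%. The stretch at chr7:142581702-142581902, plus strand of GRCm38, is shown because it holds both pooled summits. The capitals mark a minus-strand GGNGGCAG match that overlaps a plus-strand TGCCGC match, and a second TGCCGC match on the minus strand.
H19 to Igf2 interval: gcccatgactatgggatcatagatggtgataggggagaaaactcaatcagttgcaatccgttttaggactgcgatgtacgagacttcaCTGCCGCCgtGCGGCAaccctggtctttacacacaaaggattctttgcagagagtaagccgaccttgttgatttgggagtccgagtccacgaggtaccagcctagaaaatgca

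Another site in the interval, with pooled summits 15668 bp (BRG1) and 15832 bp (PBRM1) from *H19*, reached 6.79 in the pooled PBRM1 list, the highest pooled PBRM1 fold enrichment at or between the members. No PBRM1 replicate had a peak there, and BRG1 replicate 2 was the only BRG1 replicate with one (4.03), so that this value rests on the pooled list. The peaks of this interval are thus positions from single replicates and pooled lists.

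*Dlk1*, a transmembrane relative of the Notch ligands that is expressed from the paternal allele, and *Meg3*, a noncoding RNA of the maternal allele, form the other pair, 77664 bp apart. *Dlk1* had no PBRM1 promoter peak in any of the 4 PBRM1 lists. Its BRG1 peaks at chr12:109452976-109453355 and chr12:109459662-109460035 came from replicate 1 (4.35 and 4.51) and the pooled list (4.19 and 4.45), and another was in the pooled list alone (2.70). *Meg3* had 1 promoter peak in PBRM1 replicate 1 (4.65) and 1 in BRG1 replicate 1 (4.09), at different places, and the pooled peaks of the antibodies did not overlap either. *Dlk1* and *Meg3* were each called in at most 1 replicate of an antibody.

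In the interval from *Dlk1* to *Meg3*, a site at 12545 to 12652 bp before *Meg3* was called in PBRM1 replicate 2 (3.64), in BRG1 replicates 2 and 3 (5.16 and 5.00) and in both pooled lists (5.27 for PBRM1 and 5.36 for BRG1). A germline control region of this cluster is known to lie between the pair, upstream of *Meg3*. The pooled fold enrichment of this intergenic site was above the values at any *Dlk1* or *Meg3* start. TGCCGC was found 5 times within 250 bp of each pooled summit. As many were found in 0.0375% of all pooled BRG1 peaks and in 0.0272% of all 55067 pooled PBRM1 peaks with a complete window. TGCCGC holds a CpG, and these shares were not matched for CpG content. The ratio of observed to expected CpG was 0.871 (BRG1) and 0.954 (PBRM1) here, against medians of 0.321 and 0.348 over all pooled peaks. All 5 TGCCGC matches lie on the plus strand within the stretch shown, chr12:109528280-109528460 of GRCm38, and are in capitals.
Dlk1 to Meg3 interval: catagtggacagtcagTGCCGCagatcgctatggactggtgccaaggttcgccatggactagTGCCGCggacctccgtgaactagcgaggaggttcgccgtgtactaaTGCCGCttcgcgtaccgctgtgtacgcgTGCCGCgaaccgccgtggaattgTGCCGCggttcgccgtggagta

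**Figure D3:**
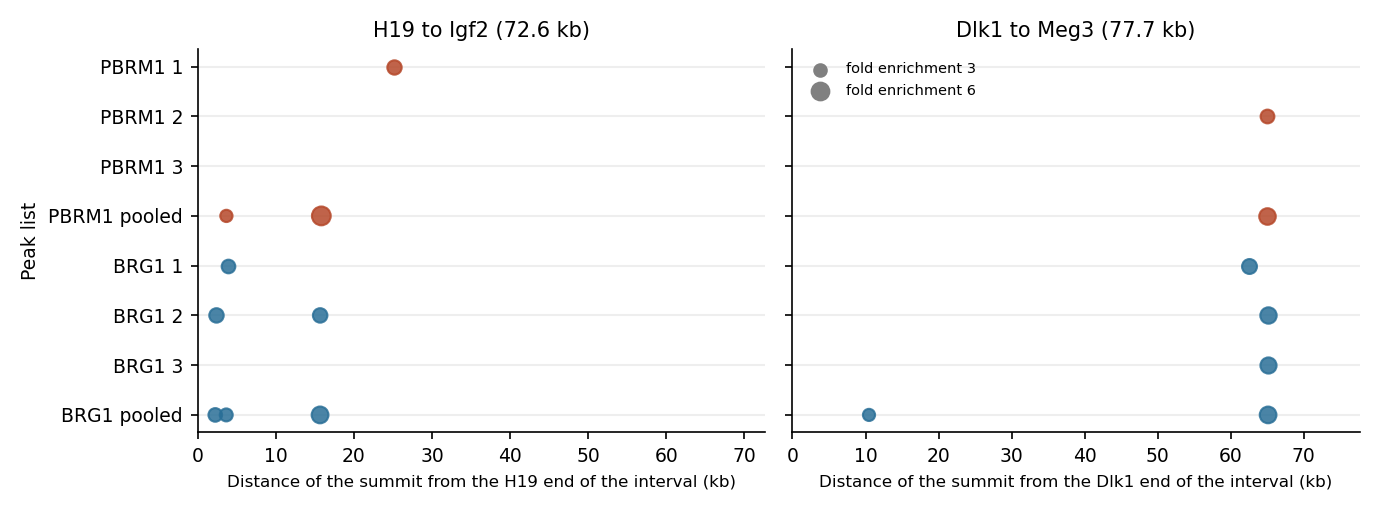
Peaks between *H19* and *Igf2* (left) and between *Dlk1* and *Meg3* (right), outside the promoter windows of these genes. Each row is a peak list, the x axis gives the distance of the summit from the gene named first in kb, and the size of a dot grows with the fold enrichment. The site near 65 kb on the right stands in 5 of the 8 lists, and no site on the left stands in more than 3.

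Over the 10 genes the 8 lists gave 45 separate sites, 26 at promoters and 19 in gene bodies. The pooled lists held 24 PBRM1 and 40 BRG1 sites, of which 20 were shared, 20 of 24 for PBRM1 and 20 of 40 for BRG1. Over the whole pooled lists the shares were 78.6% of PBRM1 peaks and 52.4% of BRG1 peaks, close to those at the members. At 18 of the 20 the fold enrichment was higher for BRG1, with medians of 3.82 for PBRM1 and 5.19 for BRG1. The same held at 80.7% of all 43337 pooled PBRM1 peaks that overlap a BRG1 peak, with medians of 4.32 and 5.61, and the libraries are not on one scale. The pooled summits of the antibodies lay a median of 102 bp and at most 254 bp apart. Of the 24 pooled PBRM1 peaks at the members, 3 were seen again in every PBRM1 replicate and 12 in none, against 24.8% and 40.8% over the whole pooled list. For BRG1, 10 of the 40 came back in every replicate and 15 in none, against 26.1% and 37.0%. For BRG1 these shares were near those of the list as a whole.

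**Figure D4:**
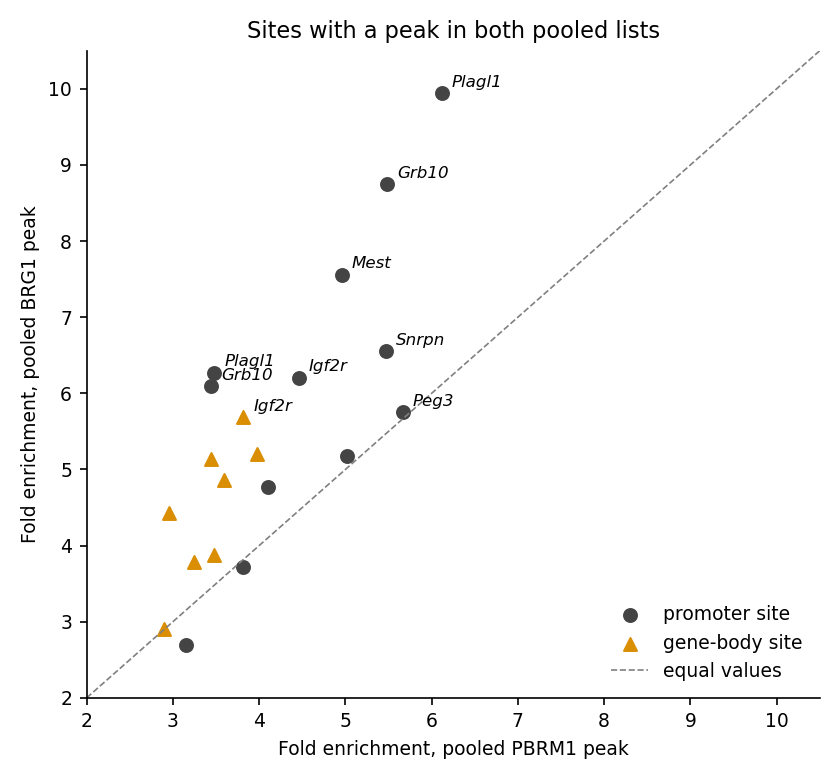
Fold enrichment of the pooled PBRM1 peak (x axis) and the pooled BRG1 peak (y axis) at the 20 sites found in both pooled lists. Circles are promoter sites, triangles gene-body sites, the dashed line marks equal values, and the strongest sites are named. The points lie above the line at 18 of 20 sites, farthest for *Plagl1*.

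Because lists of different depth are not on one scale, each strongest promoter peak was also ranked within its own list by −log10 q, as the percentage of the list's peaks at or below it. *Plagl1* stood at the 42.8, 59.4 and 5.91 percentile in the PBRM1 replicates and at 79.9, 84.6 and 75.2 in the BRG1 replicates. *Grb10* stood at 50.4, 33.4 and 14.2 and at 72.0, 68.7 and 57.6, and *Peg3* at 41.7, 72.0 and 44.3 and at 73.5, 73.4 and 73.7. For *Grb10*, the peak of PBRM1 replicate 2 was that at chr11:12037659-12038105. The site at chr11:12025565-12026584, strongest in the other replicates, stood at 29.8 in that list. In all 3 genes the PBRM1 values lay below the BRG1 values without overlap. A percentile depends on the length of its list, since further weak peaks raise the rank of a given peak, and the BRG1 lists are the longer ones. The differences of the means were −43.9 (*Plagl1*), −33.5 (*Grb10*) and −20.9 (*Peg3*) percentile points, each with an exact permutation p of 0.1 and a Benjamini-Hochberg adjusted p of 0.236 over all 14113 genes with a promoter peak in all 6 replicates. PBRM1 percentiles lay below BRG1 percentiles without overlap at 39.6% of those genes and above them at 2.74%, and the median difference over all of them was −8.79. When peaks were ranked only among those found in all 6 lists, *Plagl1* remained without overlap (−30.3), *Grb10* fell to −9.48 (exact permutation p = 0.2) and *Peg3* to −3.23 (exact permutation p = 0.9), and the share over all genes was 12.9%. The mean percentiles of the 3 genes, 32.6 to 52.7 for PBRM1 and 66.1 to 79.9 for BRG1, were below the medians of 75.3 and 85.2 over the 14113 genes.

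*Mest*, at 36.6 and 45.0 in PBRM1 replicates 1 and 3 and at 61.0, 78.0 and 70.0 for BRG1, and *Igf2r*, at 34.2 and 43.0 and at 49.8, 59.2 and 61.8, lacked a peak in PBRM1 replicate 2 alone. Without that replicate, 5 members had a promoter peak in all remaining lists, and all 5 had lower PBRM1 than BRG1 percentiles, where 52.0% of genes did. PBRM1 replicate 2 had 12770092 fragments and the longest PBRM1 list, and the part of depth in these gaps was not tested.

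The sequence around the strongest promoter peaks of the members was G and C rich, with medians of 63.1% for BRG1 (10 genes) and 63.5% for PBRM1 (8 genes) within 250 bp of the summit, where all pooled promoter peaks had medians of 58.7% and 60.5%. The ratio of observed to expected CpG ranged from 0.331 at *Peg3* to 0.995 at *Grb10* for BRG1. TGCCGC was found around the BRG1 summit in 6 of the 10 members, with 7 matches at *Mest*, 4 at *Grb10*, 2 at *Plagl1* and *Snrpn* and 1 at *Igf2* and *Peg3*. It was found in none of *H19*, *Dlk1*, *Meg3* and *Igf2r*. At least 1 match stood in 27.3% of all BRG1 promoter peaks, at least 4 in 0.326% and at least 7 in 0.0102%. TGCCGC holds a CpG, and none of the motif shares given here was matched for base or CpG content. The CpG ratio was 0.881 at *Mest* and 0.995 at *Grb10*, against a median of 0.595 over all BRG1 promoter peaks. The windows of *Mest* and *Grb10* overlap UTR exons and are not shown. A match is a run of letters and not a bound site, and methylation was not measured here.

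Beyond the members, 52 other imprinted genes were described in the same way. A promoter peak was present at 45 in the pooled PBRM1 list, at 47 in the pooled BRG1 list and at 22 in all 6 replicates. The shares among all protein-coding genes were 68.7%, 72.1% and 51.9%, although some of the 52 genes are noncoding. Their median of the mean percentile, with no peak counted as 0, was 22.9 for PBRM1 and 53.2 for BRG1, and that of the 10 members 16.2 and 44.3. Among the genes that share a locus with a member, *Mirg*, a noncoding RNA downstream of *Meg3*, had peaks in all 6 replicates (mean percentile 37.2 and 75.9), as had *Zim1* next to *Peg3* (43.8 and 73.2), *Copg2* next to *Mest* (86.6 and 93.2) and *Ddc* next to *Grb10* (41.0 and 64.4). *Airn* had promoter peaks in 2 PBRM1 and 3 BRG1 replicates, and *Ins2* in 1 and 3. *Usp29* and *Snurf* took their values from the peaks of *Peg3* and *Snrpn* described above. *Rian* and *Rtl1*, both between *Meg3* and *Mirg*, had no promoter peak in either pooled list, and neither had *Calcr* or *Slc22a2*.

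The highest mean percentiles over the 6 replicates among the other imprinted genes belonged to *Ube3a* (95.3), a ubiquitin ligase imprinted in neurons, *Inpp5f* (94.1) and *Commd1* (94.1). The 3 whose percentiles came closest to the median profile of the members were *Slc22a3*, *Ins2* and *Zrsr1*, with mean absolute differences of 7.56, 9.77 and 12.1 percentile points over the 6 lists. All 3 had 1 PBRM1 replicate and 3 BRG1 replicates with a promoter peak. The genes that keep imprints stood higher than the other imprinted genes. All 12 (among them *Zfp57*, *Trim28*, *Dnmt1*, *Uhrf1*, *Ctcf* and *Yy1*) had a promoter peak in both pooled lists and 11 in all 6 replicates, with median percentiles of 76.9 and 88.1. Among all protein-coding genes the shares were 68.7% (pooled PBRM1), 72.1% (pooled BRG1) and 51.9% (all 6 replicates). The 14113 genes with a promoter peak in all 6 replicates had medians of 75.3 and 85.2, near those of the 12. The exception was *Setdb1*, a histone H3 lysine methyltransferase, with no peak in PBRM1 replicate 3.

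**Figure D5:**
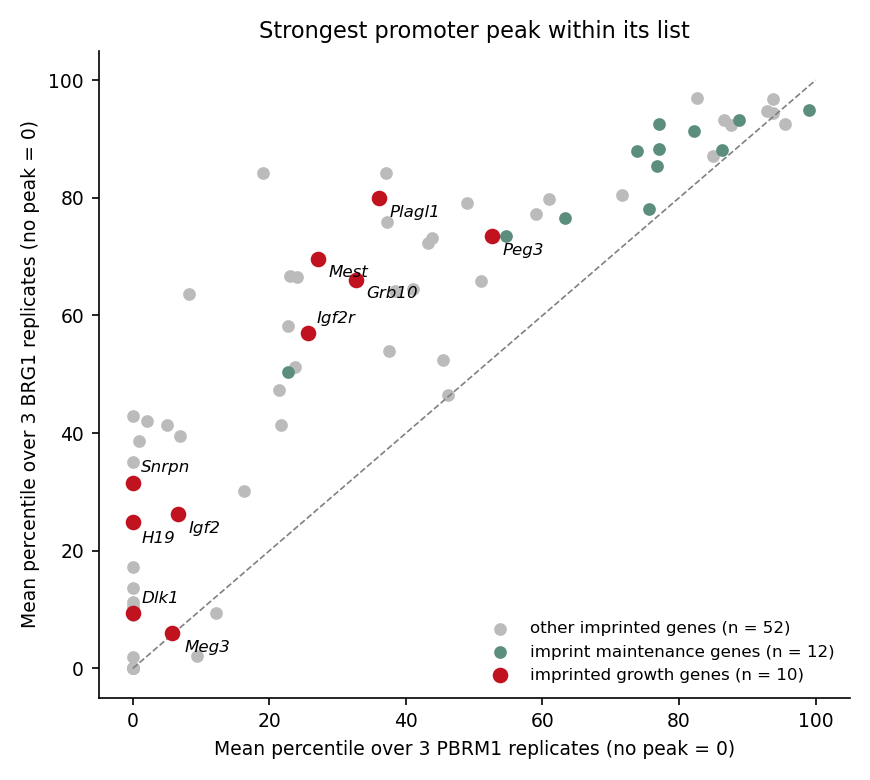
Mean percentile of the strongest promoter peak over the 3 PBRM1 replicates (x axis) and the 3 BRG1 replicates (y axis), with 0 where no peak was called, for the 10 imprinted growth genes (red, named), 52 other imprinted genes (grey) and 12 imprint maintenance genes (green). The members reach at most 52.7 on the x axis (*Peg3*) and spread from 5.96 (*Meg3*) to 79.9 (*Plagl1*) on the y axis. The maintenance genes gather at the upper right.

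Promoter peaks were also counted at marker genes of cell types, where a peak is not expression. Among all protein-coding genes, 68.7% had one in the pooled PBRM1 list, 72.1% in the pooled BRG1 list and 51.9% in all 6 replicates. All 9 stromal markers had one in both pooled lists and 6 in all 6 replicates. All 7 epithelial markers had one in both pooled lists and 1 in all 6 replicates. Since all stromal and all epithelial markers had a pooled peak, the pooled counts cannot tell these cell types apart. Of 8 markers of muscle, vessel and immune cells, 5 and 6 had one in the pooled PBRM1 and BRG1 lists and 2 in all 6 replicates, and the immune markers *Ptprc* and *Cd68* had none. By vimentin and cytokeratin staining, the paper reports the isolated cells as largely pure stroma. The part of other cell types in the member peaks was not tested. In samples that hold some other cells, fewer cells with a peak and less signal per cell cannot be told apart.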

How the data were processed

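Peak lists of ChIC-Seq for PBRM1 and BRG1 in D4 WT stromal cells were analysed, 1 per replicate and 1 pooled per antibody. Samples were grouped by the antibody and number in their labels. As the study describes it, adapters were trimmed, pairs were mapped to mm10 by Bowtie2, pairs of low mapping quality and duplicates were dropped, and peaks came from MACS. Per the file headers, MACS 2.2.7.1 ran without a control, took its local background from up to 10000 bp and kept q-values of at most 0.05. The deposited lists give for each peak a pileup signal, a fold enrichment (the ratio of pileup to local background) and a −log10 q-value, written by the authors' MACS call. The pileup signal of the deposited lists entered no comparison.

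From the lists, peaks were assigned to GENCODE M21 genes in Python 3.11.15 with numpy 2.4.6 and pandas 2.3.3, and figures were drawn with matplotlib 3.10.9. Replicates of the antibodies were compared with two-sided exact permutation tests, and percentiles with Benjamini-Hochberg adjustment over all genes tested. Sequence was read from GRCm38.p6, with all peaks inside its chromosomes, and motifs were counted as exact letters on both strands. The assignment, ranking and motif steps were tested on simulated data. Named genes were the members, imprinted genes of their loci, and others by rank or by absence of a promoter peak. Members and lists were chosen with earlier results of these data known. Fold enrichment depends on depth, so libraries are not on one scale. Alternatives were other promoter distances, stricter peaks, other rankings and windows, and each replicate left out.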

Additional observations from a re-analysis of the deposited data

How the results depend on the processing

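Of the counts over the 10 genes, those with a promoter peak in the pooled BRG1 list (10) and the pooled PBRM1 list (8, or 7 to 10) stayed within 1.5 times under every alternative of distance, strictness, summit and transcript set. The count with a promoter peak in all 6 replicates (3) was 1, *Peg3*, when −log10 q had to reach 5, and 3 to 5 with 1 replicate left out, with 5 without PBRM1 replicate 2. The cause was not tested. It was 2 with a distance of 1000 bp or with the summit required in the window, both without *Peg3*, and 2 with a fold enrichment of at least 4, without *Plagl1*. Members with a gene-body peak fell from 4 to 1 (PBRM1) and from 5 to 3 (BRG1) when −log10 q had to reach 5, and to 0 and 2 with pooled peaks limited to those found in all 3 replicates, which leaves fewer peaks by construction. The difference in peaks per list kept its sign under all alternatives, from −10.3 to −7.33 with 1 replicate left out. The count of genes with PBRM1 percentiles below BRG1 percentiles (3) was 1 when ranked among peaks found in all 6 lists and 3 to 5 with 1 replicate left out. Ranked by fold enrichment or among promoter peaks it was 2, without *Peg3*, where 32.1% and 27.5% of all 14113 genes tested did the same. No percentile difference changed its sign. With 100 bp on either side of the summit and with whole peaks, the number of members with TGCCGC kept to within 1.5 times. The medians of base composition kept to the spread between genes. The match counts of single sites moved with the window. For BRG1, TGCCGC went from 7 to 4 at *Mest* with 100 bp on either side, and from 2 to 8 at *Snrpn* with the whole peak. The labels do not say whether samples of the same replicate number share a pool of cells. The correlations of same-numbered deviations over 13068 regions were −0.0453, −0.0130 and −0.0133. They show no pairing but cannot exclude a shared pool. As a replicate block, the difference in peaks was −9.33 (exact sign-flip p = 0.25, the smallest that 3 pairs allow), and all 3 genes kept their direction. With 3 replicates against 3, no exact test could pass 0.05. No replicate peak was called at 16 of 45 sites, and absence from a replicate list shows only that no peak passed the cutoff at its depth (8868777 to 16505239 fragments).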
